A study of Mus musculus with 33 samples.

Results

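The data described here are the counts of 1870 guide RNAs (gRNAs) that target DNA downstream of Rpp25 in a CRISPR mutation screen of mouse embryonic stem cells. They were taken by position alone, as the gRNAs of the Rpp25 library whose interval midpoint lies in chr9:57506103-65197097 (mm10), out of 3908 gRNAs with a genomic position in that library and 15632 in the 4 libraries of the series. The screened cells carry GFP fused to the C-terminus of the Rpp25 protein and a placeholder gRNA at the ROSA26 locus that is exchanged for 1 library gRNA. Counts were made from genomic DNA of 1 GFP-negative library, sorted by flow cytometry after the gRNAs had been electroporated, and 1 bulk library that was not sorted, both from the same line, labelled replicate 1. The cells grew with serum, LIF, a GSK-3 inhibitor and the MEK inhibitor UO126. The sources used here do not give the number of cells sorted or whether the line is a single clone, and since only DNA was counted no marker transcripts could be checked. With 1 library per population there is no replicate check and no test, and all intervals given cover counting error only.

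Rpp25 encodes a protein subunit of ribonuclease P and of the related RNase MRP, the ribonucleoprotein enzymes that process precursor transfer RNAs and ribosomal RNA. In a screen of this design Cas9 cuts at the site that matches the gRNA, the repair leaves small insertions or deletions, and a gRNA becomes more frequent among GFP-negative cells when its mutation lowers expression of the tagged gene. Cas9 of Streptococcus pyogenes needs the letters NGG, the protospacer adjacent motif (PAM), directly 3′ of the matched bases. Guides placed far from a gene probe distal regulatory DNA, and where their target DNA carries no such element they serve as a measure of the screen's background.

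The downstream gRNAs fall into 5 clusters, parted wherever neighbouring midpoints lie over 3 kb apart. Cluster 1 holds 691 gRNAs in chr9:57506098-57512091, in the interval without annotated genes between Rpp25 (57504102 to 57505447) and Cox5a, and begins 0.662 kb beyond the Rpp25 3′ end. Cluster 2 holds 650 gRNAs in chr9:57520081-57525052 and cluster 3 holds 199 in chr9:57530081-57532089. Both lie within the annotated span of Cox5a (57517328 to 57532427), which encodes a nuclear-encoded subunit of cytochrome c oxidase, the last enzyme of the respiratory chain. Cluster 4 holds 175 gRNAs in chr9:58278771-58280479, 0.773 Mb from the Rpp25 3′ end and intergenic, 16.2 kb beyond Stoml1 and 7.24 kb before Loxl1, which encodes a lysyl oxidase that cross-links elastin. Cluster 5 holds 155 gRNAs in chr9:65195594-65197097, 7.69 Mb away, inside the long non-coding RNA gene Gm40527 and across the small nuclear RNA gene Gm25313. Exon and intron boundaries were not used here. The gRNAs tile densely: the median step between neighbouring midpoints was 5.00 bp, and in 1684 of 1865 steps within clusters the 2 intervals overlapped, so neighbouring gRNAs share most of their target.

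Sequences could be read for 52 of the downstream gRNAs, all of cluster 2, because they lie within the 300-base window from RefSeq (GRCm38.p6, plus strand) that ends 50 bases after the Cox5a start at chr9:57521232. The annotated span of Cox5a begins upstream of this start, at 57517328. Each interval spans 22 or 23 bases, the last 3 of them the PAM. Read from the deposited start plus 1, all 157 gRNAs in this window and the windows of Rpp25 and Scamp5 carried a PAM on at least 1 strand, against 55 of 157 read from the deposited start itself. The deposited intervals therefore count from 0 and include their last base. They are used as deposited to name gRNAs, and adding 1 to both ends gives the position in a genome browser. The first set below shows 3 overlapping gRNAs and then a pair that share their first 22 bases, with the first base and the PAM in capitals, because counts differed sharply between such close neighbours.
chr9:57521058-57521079, minus strand: GtagtgaacattcctgcgtGGG
chr9:57521067-57521089, plus strand: GaatgttcactacggtcaccCGG
chr9:57521068-57521090, plus strand: AatgttcactacggtcacccGGG
chr9:57521182-57521203, plus strand: GtaggcgcgagctccgcagTGG
chr9:57521182-57521204, plus strand: GtaggcgcgagctccgcagtGGG

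The first of these had 172 counts in the GFP-negative library, against 45 in bulk. The second had 306 GFP-negative counts, against 25 in bulk, while the third, shifted by a single base, had 0 in both. The shorter gRNA of the pair had 2 GFP-negative and 15 bulk counts, and the longer one 219 GFP-negative and 27 bulk counts. A single base thus separated a gRNA with counts in both libraries from one with none. The uncounted one begins with A, and none of the window's gRNAs without a first G was counted, so its zeros show no difference after sorting. Between the 2 gRNAs that differ by 1 base in length, both counted in bulk, the GFP-negative counts lay far outside counting error.

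Where sequence could be read, whether a downstream gRNA was counted at all followed its first base. In the Cox5a window 32 gRNAs began with G and all 32 had bulk counts (46.0% of all gRNAs of the library with a position had), whereas 20 began with A, C or T and 0 of them had a count in either library. Of these 20, 4 had a PAM on both strands and began with C in either reading. All 14 gRNAs of 22 bases began with G, and so did 18 of the 38 gRNAs of 23 bases. In the Scamp5 and Rpp25 windows 62 of 63 gRNAs that began with G had bulk counts, as did 0 of 42 others. Shown next are 5 uncounted gRNAs of the window and, as the fifth line, a counted one that overlaps the gRNA above it, again with the first base and the PAM in capitals.
chr9:57521046-57521068, minus strand: TcctgcgtgggaggaaaggcAGG
chr9:57521085-57521107, minus strand: CaaagctggtccgatgacccGGG
chr9:57521091-57521113, plus strand: TcatcggaccagctttggcgCGG
chr9:57521169-57521191, minus strand: TcgcgcctacggaagcgggtGGG
chr9:57521168-57521189, minus strand: GcgcctacggaagcgggtgGGG
chr9:57521218-57521240, minus strand: AcgcagcgacgcacgctgggCGG

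The counted one, which begins with G, had 0 GFP-negative and 36 bulk counts. Outside these windows no sequence was at hand, but the length of the interval carries part of the same split. Of the 359 downstream gRNAs of 22 bases, 355 (98.9%) had bulk counts, against 463 of 1511 (30.6%) of those of 23 bases. In each of the 5 clusters 97.6% to 100% of the 22-base and 27.9% to 33.9% of the 23-base gRNAs were counted in bulk. Among gRNAs counted in bulk the lengths had close shares in the sorted cells: 11.5% of the 22-base and 11.4% of the 23-base gRNAs were also counted in GFP-negative cells.

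Fewer gRNAs were counted than listed. Of the 1870 downstream gRNAs 94 had a count in the GFP-negative library and 818 in bulk, and 1052 (56.3%) had none in either. That is 5.03% in GFP-negative cells and 43.7% in bulk, against 9.03% and 46.0% of all 3908 gRNAs of the library. In both the downstream set and the whole library, 0 gRNAs were counted in GFP-negative cells without a bulk count, although the GFP-negative library was 4.49 times deeper (333608 against 74318 counts). A count of 0 allows a level of up to 8.99 CPM, counts scaled by the library total, in the GFP-negative library and up to 40.4 CPM in bulk, at 3 counts each.

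Together the downstream gRNAs took a far smaller share of the GFP-negative library than of bulk. They held 18369 counts, or 5.51% (exact Clopper-Pearson 95% interval 5.43% to 5.58%), of the GFP-negative library and 33216 counts, or 44.7% (44.3% to 45.1%), of bulk. The log2 ratio of shares was -3.02, an 8.12-fold lower share in GFP-negative cells. This ratio depends on what else fills the library, since gRNAs within 2 kb of the Rpp25 5′ end held 46.8% of GFP-negative and 17.1% of bulk counts, and the 10 GFP-targeting gRNAs held 42.0% and 0.815%. The group within 2 kb takes in the whole annotated span of the tagged Rpp25 gene as well as its flanks, so it is not a promoter group. Among counts of gRNAs beyond 2 kb of the 5′ end alone, the downstream set held 49.0% of GFP-negative and 54.4% of bulk counts (log2 ratio -0.15), and the distal upstream set held the other 51.0% and 45.6%. In the whole library the distal upstream gRNAs had a log2 ratio of -2.71, beside the -3.02 of the downstream gRNAs.

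By cluster the ratio of shares was nearest to 0 beside the gene and lower in the 4 others. Cluster 1 took 3.88% (3.81% to 3.94%) of GFP-negative and 13.8% of bulk counts, a log2 ratio of -1.83. Among counts of gRNAs beyond 2 kb of the 5′ end alone the direction turned, with 34.5% of GFP-negative and 16.8% of bulk counts (log2 ratio 1.04). In the Cox5a clusters the GFP-negative share was 1.00% (0.966% to 1.03%) for cluster 2, against 16.2% in bulk (log2 ratio -4.02), and 0.0815% (0.0721% to 0.0918%) for cluster 3, against 5.37% in bulk (-6.04). The megabase-distant clusters had like values: cluster 4 held 0.335% of GFP-negative and 5.31% of bulk counts (-3.99), and cluster 5 held 0.213% and 3.99% (-4.23). The share of bulk-counted gRNAs that were also counted in GFP-negative cells varied less, at 11.4% in cluster 1, 12.7% in cluster 2, 11.2% in cluster 3, 7.32% in cluster 4 and 11.9% in cluster 5. It was 11.5% for all downstream gRNAs, against 13.8% of the distal upstream gRNAs and 171 of 342 of those within 2 kb of the 5′ end. The clusters therefore differed in how many counts a few gRNAs had, and little in how many gRNAs were seen.

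How precise such a cluster value is can be read only from lines with replicates. In the Nanog line, also a C-terminal GFP fusion with bulk and GFP-negative libraries, the log2 ratio of a cluster of at least 100 gRNAs differed between the 2 replicates by 0.09 to 1.06 (median 0.62, 6 clusters). In the Zfp42 line, where GFP-medium cells were collected as well, the range over 4 replicates was 0.22 to 8.89 (median 1.11, 6 clusters). A gap between 2 clusters of the same library is not the same measure, since it holds the error of both. The replicate values can also hold shifts of a whole library, and they include large clusters with ratios above 0. They give only a rough scale. The gaps between clusters 2, 4 and 5 here are smaller than the Nanog and Zfp42 medians. The gap of 2.16 or more between cluster 1 and any other cluster rests on unreplicated libraries, and its own error is not known. It is larger than the medians and the largest Nanog difference, and smaller than the largest Zfp42 ranges. Those largest ranges, 8.89 and 5.06, came from clusters of 130 and 142 gRNAs. Zfp42 clusters of 442 to 676 gRNAs had ranges of 0.30 to 1.25, and a Nanog cluster of 137 gRNAs differed by 0.89. Cluster 1 here has 691 gRNAs, and clusters 4 and 5 have 175 and 155.

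The GFP-negative counts were concentrated in few gRNAs. The 10 downstream gRNAs with most GFP-negative counts held 74.3% of the set's GFP-negative counts, and 1 of them, chr9:57510913-57510934 in cluster 1, 5.48 kb beyond the Rpp25 3′ end, held 27.1%. It had 4981 counts (exact Poisson 95% interval 4840 to 5120) in GFP-negative cells, against 105 (85.9 to 127) in bulk, a log2 fold of 3.40 on the scale of CPM plus 1. Without it the log2 ratio of cluster 1 was -2.52, and without all 10 that of the whole set was -4.95. Of these 10 gRNAs 6 lie in cluster 1, 3 in cluster 2 and 1 in cluster 4. These clusters hold 289, 300 and 82 of the 818 bulk-counted downstream gRNAs.

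Next in cluster 1 came chr9:57506175-57506197, 0.739 kb beyond the gene and near the edge of the set, with 2430 GFP-negative and 79 bulk counts (log2 2.78). chr9:57510441-57510462 had 1437 and 52 (log2 2.62), and chr9:57508964-57508985 had 1363 and 27 (log2 3.49). chr9:57508303-57508325 had 688 and 18 (log2 3.08). These gRNAs are spread over the cluster and do not adjoin. The last of the cluster's gRNAs among the 10, chr9:57511261-57511282, had 502 GFP-negative and 61 bulk counts (log2 0.87).

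In cluster 2 the leading gRNA was chr9:57521431-57521453, beyond the Cox5a start at chr9:57521232, with 751 GFP-negative counts (698 to 807) against 12 in bulk (6.20 to 21.0), a log2 fold of 3.79. chr9:57524635-57524656 had 557 GFP-negative counts against 4 in bulk (1.09 to 10.2), the largest log2 fold of the set at 4.93, though its bulk count is too low to fix the fold well. The third, chr9:57522220-57522242, had 388 against 66 (log2 0.39). In clusters 3, 4 and 5 the leading gRNAs were not above bulk. In cluster 4, chr9:58278843-58278864 had 543 GFP-negative counts but also the most bulk counts of the set, 291, so that its log2 fold was -1.27. In cluster 3, chr9:57532044-57532066 had 140 against 85 (-1.44), and in cluster 5, chr9:65195760-65195781 had 334 against 75 (-0.01).

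Counting gRNAs with at least 10 counts over both libraries, 8 of 686 downstream gRNAs (1.17%) were at least 4-fold higher in GFP-negative cells by CPM plus 1, where 5.20% of all 1518 such gRNAs of the library were. At least 4-fold lower were 652 of the 686, where 87.7% of all were, and 26 lay between. The median log2 fold was -8.66, against -8.45 over all 1518. Most of these gRNAs had 0 GFP-negative counts, 593 of the 686 and 1170 of the 1518. Both medians therefore reflect bulk counts and the pseudocount, and do not measure the size of a depletion. Of the 652 lower gRNAs 593 had no GFP-negative count, so their folds are bounds. The 8 higher gRNAs comprised 5 of 233 in cluster 1 (2.15%), 3 of 249 in cluster 2 (1.20%) and 0 of 73, 71 and 60 in clusters 3, 4 and 5. Clusters 3 to 5 hold too few such gRNAs for 0 to be told from the set's 1.17%. Beside the 7 already given, these include chr9:57524515-57524537 in cluster 2, with 228 GFP-negative and 6 bulk counts (log2 3.07). This gRNA and chr9:57524635-57524656, also of cluster 2, had fewer than 10 bulk counts. These 2 of the 8 passed the filter only through the GFP-negative counts that make them high. With at least 10 bulk counts required, 6 of 681 downstream gRNAs (0.881%) were higher, where 4.66% of all were. The downstream share of higher gRNAs lay below that of the library, and near the 1.49% of the distal upstream gRNAs (8 of 538). Within 2 kb of the 5′ end, which includes the Rpp25 gene itself, it was 21.4% (63 of 294).

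The most abundant bulk gRNAs without any GFP-negative count mark the other end. chr9:57510208-57510229 in cluster 1 had 0 GFP-negative and 282 bulk counts, at least 422-fold lower with the GFP-negative count set to 3. This bound and those below take the bulk count as exact and leave out the sampling of sorted cells. In cluster 2, chr9:57524611-57524633 (271 bulk counts) was at least 405-fold lower and chr9:57521675-57521696 (234) at least 350-fold lower. In cluster 4, chr9:58280003-58280024 (184) was at least 275-fold lower. For the other 6 of the 10 such gRNAs the bound was 232-fold to 257-fold. Of them, chr9:57524274-57524295 and chr9:57524969-57524990 lie in cluster 2, chr9:58280076-58280098 and chr9:58279526-58279547 in cluster 4, chr9:57531624-57531645 in cluster 3, where it had the most bulk counts (162), and chr9:57510193-57510215 in cluster 1. In cluster 5 the gRNA with most bulk counts, chr9:65196695-65196716, had 2 GFP-negative and 144 bulk counts (log2 -8.11). These gRNAs were picked for having 0 GFP-negative counts. Over the whole set, gRNAs with more bulk counts were more often counted after sorting: 39 of 176 gRNAs with 60 or more bulk counts (22.2%) were counted in GFP-negative cells, against 6 of 137 (4.38%) with 1 to 9. In each of the 4 bulk classes the gRNAs within 2 kb of the 5′ end were counted more often, from 19.6% in the lowest to 76.7% in the highest.

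gRNAs with many GFP-negative counts had neighbours with few or none. Of the 140 other gRNAs within 50 bp of the 10 leading ones, 68 had bulk counts, 12 had GFP-negative counts and 0 had over 100. The leading gRNA chr9:57510913-57510934 had 7 such neighbours, 5 of them with bulk counts (176 in sum) and 0 with GFP-negative counts. Around chr9:57521431-57521453 there were 19 bulk-counted neighbours with 580 bulk counts in sum, and 11 GFP-negative counts in all of them, from 1 gRNA. Over all 28 downstream gRNAs with more than 100 GFP-negative counts, 22 of 176 bulk-counted neighbours (12.5%) were counted in GFP-negative cells, and 4 (2.27%) had over 100. The 12.5% is near the 11.5% of all bulk-counted downstream gRNAs, of which 28 of 818 had over 100. Within 2 kb of the Rpp25 5′ end the same count gave 839 of 1189 neighbours (70.6%), and 622 (52.3%) had over 100. The base there was also higher: of all 342 bulk-counted gRNAs 171 were counted in GFP-negative cells and 114 had over 100. The neighbour shares of the 2 parts therefore differ in large part with these base shares. Here a neighbour of several gRNAs is counted once for each, and the gRNAs were picked by their own GFP-negative count, so these shares describe the libraries and were not tested.

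Pairs of nearly the same target could also differ in GFP-negative counts. There were 89 pairs of downstream gRNAs that share 1 end and differ by 1 base in length, of which 87 had bulk counts for both. In 5 of the 87 both had GFP-negative counts, in 19 only 1 had and in 63 neither. Of all bulk-counted downstream gRNAs 11.5% had GFP-negative counts, and whether partners were counted together more often was not tested. In 9 pairs 1 gRNA had over 100 GFP-negative counts, and its partner had 0 in 6 of them and at most 7. The abundant chr9:57510208-57510229, with 0 GFP-negative counts, lies within chr9:57510207-57510229, which had 262 GFP-negative and 157 bulk counts. The gRNA chr9:57524635-57524656, with 557 GFP-negative and 4 bulk counts, is contained in chr9:57524635-57524657, which had 3 and 28. In none of the 87 pairs did both gRNAs have over 100 GFP-negative counts (0 pairs). Only 28 of the 818 bulk-counted downstream gRNAs had over 100, so 0 such pairs says little about whether partners agree.

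The replicated lines give the error of such single values. In the Nanog line 75 gRNAs of replicate 1 (6.37% of 1178) and 79 of replicate 2 (5.93% of 1332) were at least 4-fold higher in GFP-negative cells by the same rule, and 5 were shared, 6.67% of one list and 6.33% of the other. The 10 gRNAs with most GFP-negative counts had 0 in common. The Zfp42 replicates had 70 to 91 higher gRNAs each, and pairs of them shared 8 to 18, which is 11.3% to 25.4% of a list. Of the 10 gRNAs with most GFP-negative counts, Zfp42 replicates 3 and 4 shared 3 and the other pairs 0. The overlap that unrelated lists of these sizes would have is not given here for either line. The 8 higher downstream gRNAs come from 1 library and have no second measurement.

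Along cluster 1, in steps of 1 kb from the Rpp25 5′ end, the log2 ratio of shares went up and down from step to step. It was -1.45 at 2 to 3 kb, -4.25 at 3 to 4 kb, -1.23 at 4 to 5 kb, -5.37 at 5 to 6 kb, -1.13 at 6 to 7 kb and -3.49 at 7 to 8 kb. In each step 1 gRNA held 65.9% to 99.2% of the GFP-negative counts. The numbers of gRNAs with GFP-negative counts were 9, 3, 4, 3, 11 and 3, of 40 to 65 counted in bulk. At the Cox5a start at chr9:57521232 the 1-kb step before it held 0.239% of GFP-negative and 2.83% of bulk counts (-3.57), and the step after it 0.445% and 5.65% (-3.67). Both steps lie within the annotated span of Cox5a. The next steps downstream had -5.88, -6.12 and -3.73. Within the 300-base window at the start, 7 of the 32 counted gRNAs had GFP-negative counts, 731 in all (0.219%), against 1114 in bulk, a log2 ratio of -2.77. They include the 2 gRNAs shown first with 172 and 306 counts and the pair at 57521182. One counted gRNA downstream of the start, chr9:57521245-57521267, had 0 GFP-negative and 110 bulk counts, and the gRNA with most bulk counts before the start, chr9:57521099-57521120, had 28 and 94. Both are printed here as the members of the window with most bulk counts.
chr9:57521245-57521267, minus strand: GtacagcagttcgcgggggcCGG
chr9:57521099-57521120, minus strand: GtcggcgccgcgccaaagcTGG

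The near edge of the set falls between gRNAs with few counts. The 2 gRNAs just inside, chr9:57506098-57506120 and chr9:57506113-57506135, had 0 counts in both libraries. The 2 just outside, chr9:57506047-57506069 and chr9:57506049-57506070, had 0 GFP-negative counts and 9 and 3 bulk counts. The placeholder gRNA was left out of all totals and had 1 GFP-negative and 455 bulk counts.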

How the data were processed

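The authors deposited a table of raw counts per gRNA for each reporter line, whole numbers without normalization. The gRNAs were amplified by PCR from genomic DNA, per the labels' protocols, with no mention of molecular identifiers, so counts are not independent molecules. Positions are in mm10, per the submitters' processing notes. The sources used here name no counting program or settings. The GFP-negative library of the Rpp25 line has a title that names Rpp26, and its description and tagged-gene field, which name Rpp25, were followed.

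Counts were scaled to CPM by the total of library gRNAs (333608 GFP-negative, 74318 bulk), with a pseudocount of 1 CPM for single folds. Shares have exact Clopper-Pearson and counts exact Poisson 95% intervals. Gene spans and sequences came from RefSeq tables of GRCm38.p6. Python 3.11.15, pandas 2.3.3 and scipy 1.17.1 were used, and the fold rule was tested on simulated Poisson counts. The simulated counts were corrected for their known change of scale, and the deposited counts were not, so this does not cover these libraries. gRNAs are named by rule: the 10 with most GFP-negative counts, the 10 with most bulk counts among those with 0 GFP-negative counts, the highest of each cluster in either library, and those at the edge of the window. Members of the Cox5a window, of the nested pairs and those at least 4-fold higher were named after their values were seen. The gRNAs and groups were chosen with earlier results of these data known. Alternatives were another pseudocount, filter, total, scaling, fold and cluster gap, and leaving out leading gRNAs. The Nanog and Zfp42 tables served for the spread between replicates.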

Additional observations from a re-analysis of the deposited data

How the results depend on the processing

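No paired analysis was possible because the Rpp25 line has 1 library per population and no value comes from a test. The log2 ratio of shares of all downstream gRNAs, -3.02, was -3.01 with the placeholder in the totals. It moved to -2.25 without GFP-targeting gRNAs in the totals, -3.47 without the leading gRNA, -4.95 without the leading 10, -2.56 with counts capped at the 99th percentile, and -0.15 over gRNAs beyond 2 kb of the Rpp25 5′ end, a total chosen after seeing the data. For clusters 1 to 5 the ratio was -1.06, -3.24, -5.27, -3.21 and -3.45 without GFP-targeting gRNAs, and -2.52, -4.38, -7.05, -4.84 and -5.11 without the leading gRNA of each. Over distal gRNAs only it was -1.15, -3.17, -1.12 and -1.36 for clusters 2 to 5, and reversed to 1.04 for cluster 1. That total leaves out the gRNAs and GFP controls that fill the GFP-negative library. By construction this raised the ratio of every cluster by the same amount, and only cluster 1 changed sign. With gaps over 10 kb there were 3 clusters, and 5 with gaps over 1 kb. The number of gRNAs at least 4-fold higher was 14 (2.04% of 686, against 7.44% of all) with scaling by the median ratio, and 6 to 8 under the other 4 alternatives (0.428% to 1.17%, against 2.02% to 5.20% of all). The number at least 4-fold lower was 784 of 1870 without a filter (41.9%, against 41.2% of all) and 640 to 651 under the other 4 (93.3% to 95.6%, against 85.5% to 88.5% of all). Counted in GFP-negative cells were 72 gRNAs at 3 or more counts, and 72.3 on average at the depth of bulk. Depth limits folds of gRNAs with few bulk counts most.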

Other observations

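The split by first base seen at Cox5a extended to other libraries of the series, but not to all. In the Nanog library, gRNAs lying in RefSeq promoter windows had bulk counts for 69 of 72 that began with G and 0 of 68 others. In the Zfp42 library this held for 45 of 45 and 0 of 47. In the Tdgf1 library 36 of 36 gRNAs that began with G and 43 of 43 others were counted. By length, 33.1% of the 23-base gRNAs of the Rpp25 library had bulk counts, 33.1% in the Nanog, 31.2% in the Zfp42 and 96.8% in the Tdgf1 library, whereas 94.1% to 99.6% of the 22-base gRNAs did in all 4. These windows are a small part of each library, and a first base could be read only there. The cause was not tested. A gRNA without a bulk count says nothing about the role of its target DNA.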
